A study of Columba livia with 12 samples.

Results

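In liver small-RNA libraries of white king pigeons (Columba livia), 92 mature miRNAs whose names carry the prefix conserve-cli- had 50 or more raw read counts in all, summed over 12 libraries. They were chosen by this prefix and this sum alone, out of 502 names with the prefix and 1039 names in the table. Of the other names with the prefix, 341 had 1 to 49 counts and 69 had no count. The remaining names were 324 with a plain pigeon prefix (cli-) and 213 with a prefix for predicted miRNAs. The table does not define the prefix, and the names are called conserved names here, with the prefix left out. Just inside the limit were miR-1669-5p with 50 counts, miR-1470-5p with 51, and miR-7353-1-5p and miR-7410-3p with 52 each. Just outside it, 5 names had 48 counts each, miR-4786-3p, miR-6690-3p, miR-940-3p, miR-6888-5p and miR-4493-3p.

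The series measured liver miRNAs over pigeon development, in birds aged 1 day (1d), 14 days (14d), 28 days (28d) or 2 years (2y), with 3 libraries per age and 1 pigeon per library. All birds were of the white king breed, a domestic pigeon. The birds of the youngest 3 ages were squabs, the nestlings of pigeons, of mixed sex, and the birds of 2y were parents, 8 males and 8 females in the whole study. The sources used here do not give the sex of each sequenced bird, and no treatment is named. Replicates 2 and 3 at 1d have descriptions that name pigeons of other ages, of 2 and 3 days, while their titles and stage labels read 1d, which was used. Pigeon-named hepatocyte miRNAs (the families miR-148a, miR-194 and miR-215) held 5.73 to 25.7% of the counts of each library. No other tissue was compared and no limit was set, so these shares describe the libraries and do not test liver identity. Most of these counts were of miR-148a-3p, so the shares rest mainly on that name. It had 211945 of 3741429 counts in replicate 1 at 14d and 1513968 of 5894325 in replicate 2 at 28d. Library totals ranged from 3100273 to 9393075 counts.

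A miRNA is cut from a hairpin precursor, whose strands give the 5p and 3p arm, and the arm loaded into an Argonaute protein pairs with messenger RNAs and lowers their output. The arms of a hairpin usually differ in abundance. In a miRNA's name the number marks the family in order of registration, a letter marks a related sequence, and a further figure marks another gene copy. In liver, conserved families such as miR-148a mark hepatocytes, while miR-142 and miR-146 are known from blood and immune cells and miR-143 and miR-145 from smooth muscle.

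The 92 conserved names were rare in every library. Together they held 81575 counts, which was 95.1% of the counts of all conserved names but 0.111% of all counts. Their totals ran from 50 to 17090 with a median of 141, and 12 names reached 1000 counts while 59 stayed under 200. The 5 largest held 60.1% of the counts of the 92 and the 10 largest 78.4%. Both arms were equally frequent, with 46 names of each, and the names fell into 80 family numbers, of which 11 had both arms among the 92.

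Not all of the 92 were miRNAs without a pigeon name. For 8 of them the same number, letter and arm also stood in the table under a pigeon name: miR-148a-1-5p, miR-148a-1-3p, miR-146a-5p, miR-26-3p, miR-1b-3p, miR-142-3p, miR-143-3p and miR-145-5p. These 8 held 25.2% of the counts of the 92. A further 5 had a pigeon-named entry of the same number with another letter or arm, miR-1388a-3p, miR-1388a-5p, miR-214b-3p, miR-214b-5p and miR-449b-3p, and held 2.31%. The other 79 had a number that no pigeon-named entry carried, and they held 72.4%. Many of these numbers were first given in one other species, such as miR-3156, miR-5589, miR-4707, miR-6748, miR-6815 and miR-10398 in human, miR-7116 and miR-7094 in mouse, miR-2399 and miR-2404 in cattle, and miR-1631 and miR-1692 in chicken.

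Most conserved names were found in a part of the libraries. Of the 1104 values of 92 names in 12 libraries, 559 were 0, which is 50.6%, and the median name had a count in 5 libraries. A count in all 12 was found for 9 names, miR-148a-1-5p, miR-148a-1-3p, miR-26-3p, miR-3151-5p, miR-5705-3p, miR-9265-3p, miR-9265-5p, miR-1548-3p and miR-6690-5p, while 10 names were found in 1 library and 54 in 6 or fewer. Pigeon-named miRNAs of 50 or more counts (249 names) had a median of 12 libraries with a count, and 76.7% of them had a count in all 12, against 9.78% of the conserved and 5.26% of the 76 predicted names. Their median total was 3561 counts, against 141 for the conserved and 115.5 for the predicted names, so the classes differed in depth as well, and the part of depth in the difference was not tested.

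**Figure D1:**
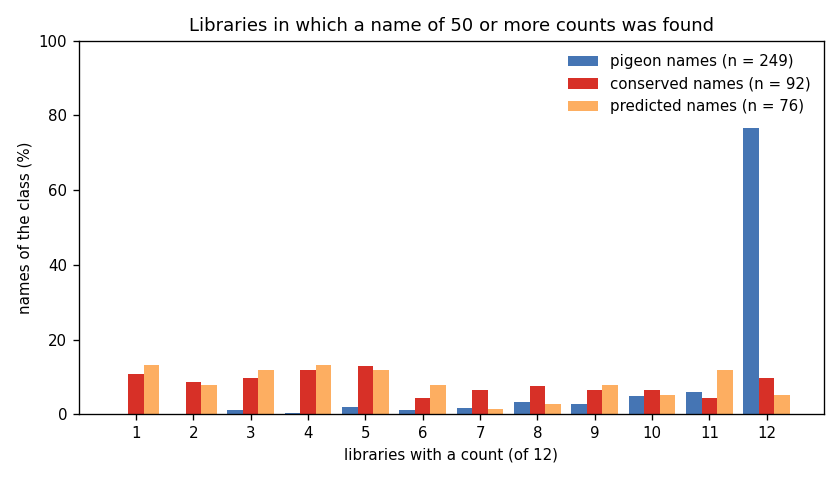
Share of the names of 50 or more counts (vertical axis, % of the class) found in a given number of libraries (horizontal axis, 1 to 12), for pigeon, conserved and predicted names. Pigeon names gather at 12 libraries (76.7%), while conserved and predicted names spread over all numbers, with 9.78% and 5.26% at 12.

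Zeros also fell among names with many counts. Among conserved names, 28 reached 100 counts in some library, and 18 of these (64.3%) had a count of 0 in another library of the same age. The same held for 13 of 189 pigeon names (6.88%) and 12 of 18 predicted names (66.7%). Where a name had no count, up to 3 counts remain possible, a floor between 0.326 and 1.90 CPM by library (CPM are counts relative to library sizes scaled by edgeR's trimmed mean of M values, TMM). Such floors and the intervals below cover counting error only.

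**Figure D2:**
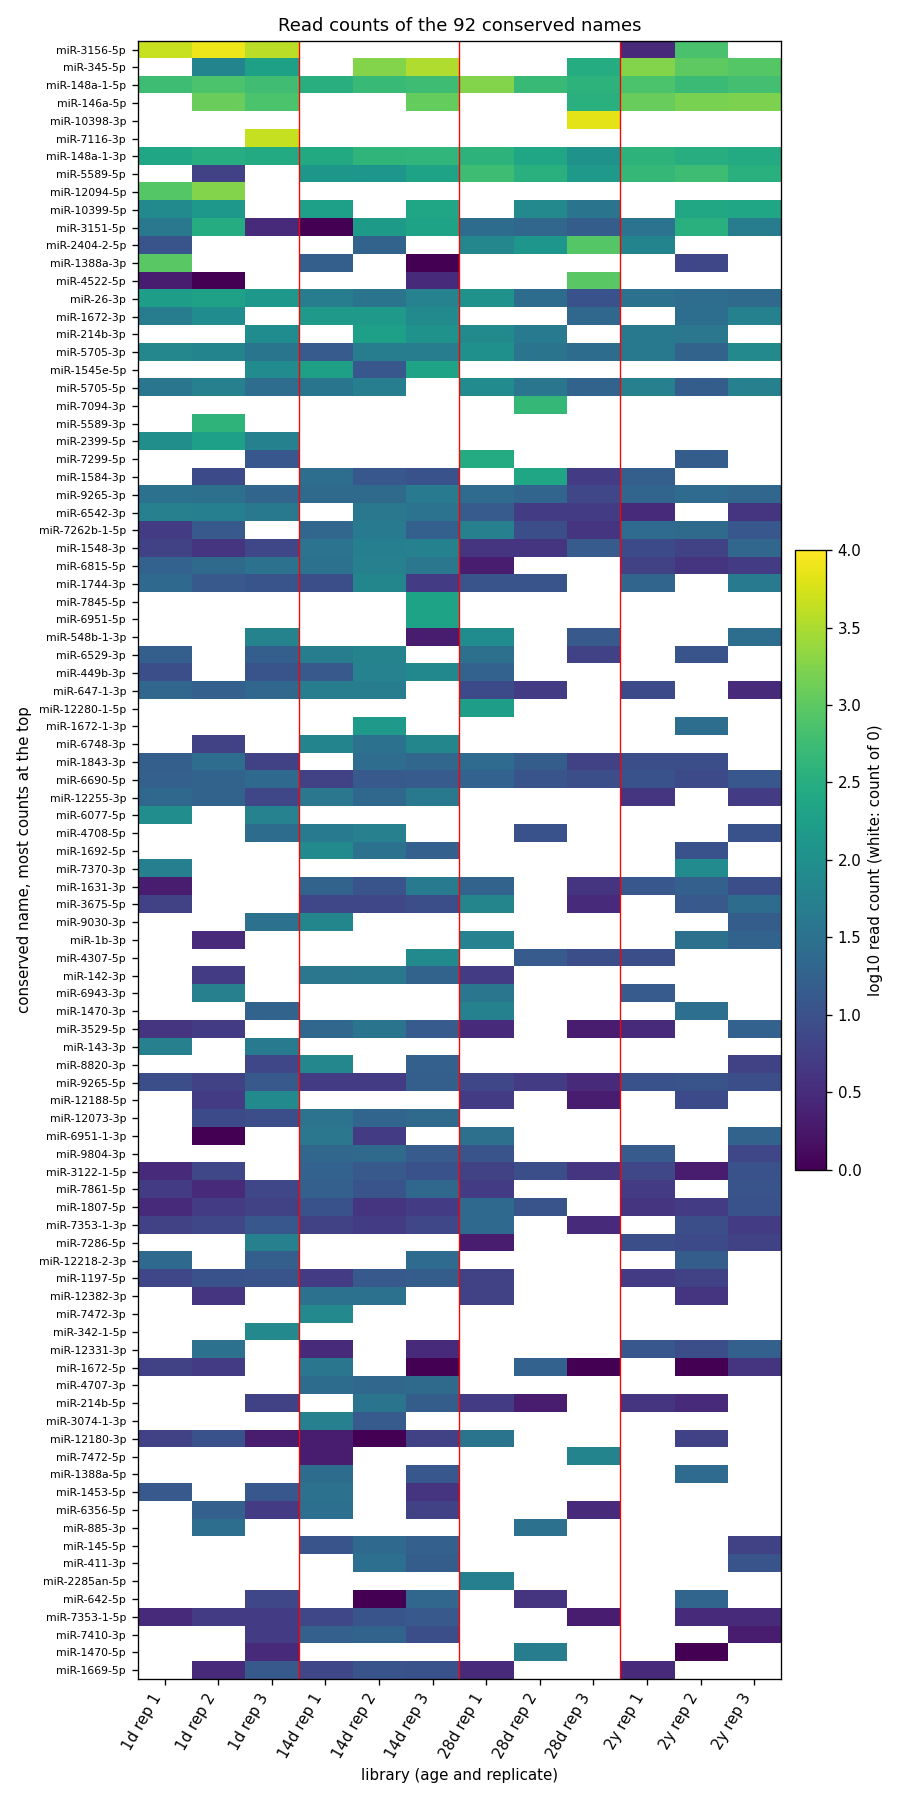
Read counts (colour, log10 scale, white for a count of 0) of the 92 conserved names (rows, most counts at the top) in the 12 libraries (columns, red lines between ages). Of the 1104 cells 559 are white, and 9 rows have no white cell.

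The share of counts held by the 92 names was highest at 1d, apart from a single library of 28d. At 1d it was 0.231, 0.299 and 0.252% in replicates 1, 2 and 3, and at 14d it was 0.0695, 0.0815 and 0.112%. At 28d it was 0.0495, 0.0400 and 0.333%, and at 2y 0.0670, 0.0663 and 0.0493%. Exact (Clopper-Pearson) 95% intervals were narrow against these differences, the widest running from 0.327 to 0.340% in replicate 3 at 28d. The means were 0.261 ± 0.0347, 0.0876 ± 0.0218, 0.141 ± 0.167 and 0.0609 ± 0.0100% (SD, n = 3) at 1d, 14d, 28d and 2y, and without replicate 3 the mean at 28d was 0.0447%. Shares are raw percentages of a library's counts and were not tested, since the names were chosen by their counts.

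The leading name held 12.7 to 66.9% of the counts of the 92 names, depending on the library. miR-3156-5p held 55.5, 56.8 and 33.8% of the counts of the 92 in the libraries of 1d. In replicate 3 at 1d miR-7116-3p held more, 39.4%, and in replicate 3 at 28d miR-10398-3p held 66.9%. The leading name at 14d was miR-345-5p in replicates 2 and 3, with 38.3 and 41.6%, and miR-148a-1-5p in replicate 1, with 12.7%. miR-148a-1-5p also led in replicates 1 and 2 at 28d, with 40.3 and 21.1%. At 2y the leading names were miR-345-5p in replicate 1, with 35.7%, and miR-146a-5p in replicates 2 and 3, with 26.3 and 35.3%. Without the leading name of each library the mean shares were 0.128 ± 0.0249, 0.0588 ± 0.00769, 0.0571 ± 0.0460 and 0.0413 ± 0.00863% (SD, n = 3).

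**Figure D3:**
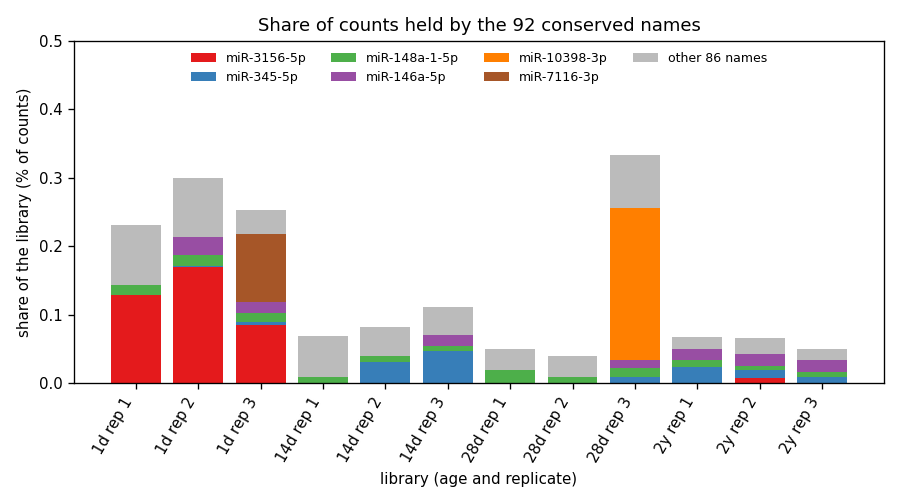
Share of each library's counts (vertical axis, %) held by the 92 conserved names, split into the 6 with the most counts and the other 86. miR-3156-5p fills much of the bars of 1d, and miR-7116-3p and miR-10398-3p each appear in 1 library.

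The number of conserved names found was highest at 14d. At 1d 43, 49 and 51 of the 92 had a count, at 14d 55, 53 and 59, at 28d 45, 30 and 35, and at 2y 37, 46 and 42. All 3 libraries of 14d stood above all 9 others. The means were 47.7 ± 4.16, 55.7 ± 3.06, 36.7 ± 7.64 and 41.7 ± 4.51 (SD, n = 3). Over all 1039 names the libraries of 14d also had the most names with a count, 502 to 504, against 303 to 445 in the other libraries, so this order was not particular to the conserved names.

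Agreement between pigeons of the same age was limited. Of the names found at an age at all, 24 of 75 (32.0%) were found in all 3 libraries at 1d, 37 of 71 (52.1%) at 14d, 16 of 62 (25.8%) at 28d and 20 of 66 (30.3%) at 2y. In a further 31, 12, 30 and 27 names the count came from 1 of the 3 libraries. Over the name-by-age combinations with any count, 35.4% had a count in all 3 libraries for conserved names, 36.2% for predicted and 89.2% for pigeon names.

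Ranks of the 92 names agreed loosely, within an age and between ages. Spearman's rho over the 92 names, between the counts of a pair of libraries, was 0.204 to 0.531 with a median of 0.398 over the 12 pairs within an age. It was -0.0471 to 0.556 with a median of 0.277 over the 54 pairs between ages. The median share of names found in both libraries, of those found in either, was 45.7% within and 46.5% between ages, and within 14d it was 64.7 to 68.8%. These correlations are across miRNAs, which are not independent replicates, and share the library depth.

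For a test across ages, a negative binomial model with 1 mean per age was fitted to all names with enough counts (the quasi-likelihood test of edgeR, p-values adjusted after Benjamini and Hochberg over all 345 names tested, threshold 0.05). Of the 92 conserved names 54 passed the filter on low counts and 38 were not tested. A name could pass the filter through 1 age where it was high. The counts of calls and the p-values of single names below therefore describe the names and support nothing further. Over the 4 ages 13 of the 54 were called (24.1%), beside 45.2% of all tested names. By the same test 16 of the 54 had an unadjusted p under 0.05, beside 183 of all 345 names. The calls of 5 names held in each of 12 fits that left out 1 library: miR-5589-5p, miR-148a-1-5p, miR-6815-5p, miR-2399-5p and miR-26-3p. The other 8 were lost in 3 to 11 of those fits.

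From 1d to 14d, 5 of the 54 tested conserved names were called higher and 3 lower, 14.8% in both directions together. Of all tested names 16.8% were called higher and 14.2% lower, 31% together. From 14d to 28d, 1 of the 54 was called higher and 5 lower, 11.1% together, beside 15.7% and 12.5% of all names, 28.1% together. From 28d to 2y none of the 54 was called by edgeR's quasi-likelihood test, beside 0% of all 345 names. There 5 had an unadjusted p under 0.05, beside 39 of all 345 names. DESeq2 called 1 lower, beside 18 of all 345 called in either direction, and limma voom called 0, beside 0 of all 345. Between 1d and 2y, 1 of the 54 was called higher and 2 lower, 5.56% together, beside 14.5% and 13% of all names, 27.5% together. The median log2 fold changes of the conserved and of all tested names were 1.02 and 0.49 from 1d to 14d, -0.95 and -0.28 from 14d to 28d, -0.06 and -0.18 from 28d to 2y, and 0.13 and 0.04 between 1d and 2y. The comparisons share libraries and are not independent of each other.

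The counts of calls moved when libraries were left out. Leaving out 1 library gave 5 to 10 calls of conserved names over the 4 ages, 1 to 8 from 1d to 14d, 3 to 5 from 14d to 28d and 2 to 4 between 1d and 2y. The lowest came without replicate 1 of 14d, replicate 2 of 1d, any library of 14d, 28d or 2y, and replicate 2 of 1d, respectively. Calls among all tested names (385 to 410) moved as well, to 112 to 151, 50 to 118, 61 to 91 and 71 to 107. In the fit of all libraries they were 156, 107, 97 and 95 of 345. An alternative kept replicate 1 as the only library of 1d, chosen after seeing the data because the descriptions of the others name other ages. There miR-5589-5p, with 0 counts in that library, had log2 fold changes of 9.99 from 1d to 14d and 11.9 between 1d and 2y. It was called in both comparisons, while the falls from 1d given below were not called. Calls among all names were not counted in that fit.

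In bulk liver, fewer cells of a type and less RNA per cell cannot be told apart. Cell type markers also moved with age. Pigeon-named hepatocyte miRNAs, mostly miR-148a-3p, held 16.3 to 20.5, 5.73 to 6.46, 17.8 to 25.7 and 15.8 to 18.3% of a library, taking the ages from 1d up to 2y. Leukocyte miRNAs held 2.65 to 4.94, 1.53 to 2.24, 2.20 to 8.99 and 2.65 to 3.18%, and mesenchymal miRNAs 7.78 to 9.47, 3.85 to 5.52, 7.58 to 13.2 and 12.1 to 19.1%. Members of these lists did not all move alike between 1d and 14d. Of the mesenchymal list, miR-143-3p went from 39764 to 19882 CPM. Its miR-145-5p went from 395 to 2022 CPM and its miR-214-3p from 38.3 to 375 CPM. Of the leukocyte list, miR-142-5p went from 10459 to 3335 CPM and miR-146b-3p from 27.6 to 104 CPM. Endothelial miRNAs (miR-126) held 2.98 to 5.09, 2.12 to 2.69, 1.92 to 4.09 and 2.11 to 2.27%. Lists that were low in liver went the other way and had their highest values at 14d. Epithelial miRNAs held 0.111 to 0.122, 0.152 to 0.404, 0.0347 to 0.0967 and 0.0413 to 0.0430%, and muscle miRNAs 0.101 to 0.373, 0.271 to 0.540, 0.0560 to 0.188 and 0.0341 to 0.0445%. Neural miRNAs held 0.0129 to 0.0454, 0.0648 to 0.0900, 0.00148 to 0.0339 and 0.00197 to 0.00381%. Epithelial and neural shares at 14d thus lay above those of all other libraries, at the age with the most conserved names found. All members of these lists had counts, and the part of these markers in the changes below was not tested.

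miR-5589-5p was nearly absent at 1d and present in every library of the other ages. Its counts were 0, 6 and 0 at 1d, 129, 128 and 210 at 14d, 577, 350 and 143 at 28d, and 460, 576 and 347 at 2y. Relative to the scaled library sizes this was 0.265 ± 0.460, 21.2 ± 6.18, 90.8 ± 24.2 and 79.6 ± 12.7 CPM (SD, n = 3), and the libraries of 1d did not overlap with any of the others. It rose 73.2-fold from 1d to 14d, a log2 fold change of 6.19 ± 1.03 (SE; edgeR adjusted p = 0.00184). Between 1d and 2y it rose 275-fold, 8.10 ± 1.11 on the log2 scale (edgeR adjusted p = 0.000392). The size of both folds rests on the 6 counts of replicate 2 at 1d. Without that library 1d had no count, and with 3 counts per library as the floor the levels were at least 50.4-fold higher at 14d and at least 189-fold higher at 2y. From 14d to 28d the difference of 2.10 ± 0.82 (log2) was not called (edgeR adjusted p = 0.0834), although the libraries of those ages did not overlap. DESeq2 (DESeq2 adjusted p = 2.87e-08) and limma voom (voom adjusted p = 0.00138) called it higher, while edgeR with other scalings or filters on all 12 libraries did not. With replicate 1 as the only library of 1d, edgeR did call it higher, at a log2 fold change of 2.10.

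The opposite arm behaved otherwise. miR-5589-3p had 400 counts in replicate 2 at 1d, where the 5p arm had 6, and 0 in the other 11 libraries, including the 9 in which the 5p arm had at least 128. The count of 210 for miR-5589-5p in replicate 3 at 14d was shared exactly by 4 more conserved names, as given further down, so that value is uncertain.

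miR-148a-1-5p was found in all 12 libraries and was higher at 28d than at 14d on the TMM scale. Its counts were 570, 738 and 583 at 1d, 329, 502 and 582 at 14d, 1804, 498 and 387 at 28d, and 730, 534 and 627 at 2y. The levels were 86.5 ± 9.89, 62.3 ± 5.55, 206 ± 40.4 and 112 ± 26.8 CPM (SD, n = 3), and the libraries of 28d stood above those of every other age. From 14d to 28d it rose 3.30-fold, 1.72 ± 0.25 on the log2 scale (SE; edgeR adjusted p = 0.000889). With library sizes scaled by total count alone, the log2 fold change was 0.67 and the call was lost (edgeR adjusted p = 0.138). That scaling moved the median of all tested names by -1.01 in this comparison, and which scaling is nearer the truth was not tested. From 28d to 2y it was 1.85-fold lower without a call (edgeR adjusted p = 0.282), while DESeq2 called it lower (DESeq2 adjusted p = 0.0215). Between 1d and 2y the log2 fold change was 0.37 without a call (edgeR adjusted p = 0.281) and turned to -1.003 under total-count scaling, which called it lower (edgeR adjusted p = 0.0379).

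The pigeon-named miR-148a-5p went the other way over the same step. It had 4892, 5351 and 4280 counts at 1d, 2062, 3208 and 2531 at 14d, 1399, 352 and 165 at 28d, and 405, 288 and 231 at 2y. From 14d to 28d it fell 2.76-fold, by 1.47 ± 0.29 on the log2 scale (SE; edgeR adjusted p = 0.00387). The ratio of the conserved to the pigeon-named count, which no library scaling touches, lay between 0.117 and 0.138 in the libraries of 1d and between 0.156 and 0.230 in those of 14d. It lay between 1.29 and 2.35 in those of 28d and between 1.80 and 2.71 in those of 2y, so the order of both names differed between the younger and the older ages in all 12 libraries. The ratio was chosen after its values were seen and was not tested. The sources used here do not say how reads were divided between both names.

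The 3p arm of the same conserved name was not called over the 4 ages. miR-148a-1-3p had 223, 310 and 277 counts at 1d, 273, 421 and 430 at 14d, 390, 222 and 114 at 28d, and 387, 311 and 281 at 2y. Its levels were 37.0 ± 4.97, 50.0 ± 5.15, 63.5 ± 15.8 and 57.4 ± 12.5 CPM (SD, n = 3), with an edgeR adjusted p of 0.124 over the 4 ages. Its log2 fold change from 14d to 28d was 0.34 without a call (edgeR adjusted p = 0.338) and turned to -0.82 under total-count scaling, which called it lower (edgeR adjusted p = 0.0381). The ratio of the 5p to the 3p arm lay between 2.10 and 2.56 for 1d, 1.19 and 1.35 for 14d, 2.24 and 4.63 for 28d, and 1.72 and 2.23 for 2y. The 5p arm thus had more counts than the 3p arm in all 12 libraries. Under the pigeon name the 3p arm was the main one, with 211945 to 1731314 counts per library, and miR-148a-1-3p amounted to 0.0316% of the counts of both 3p names together.

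**Figure D4:**
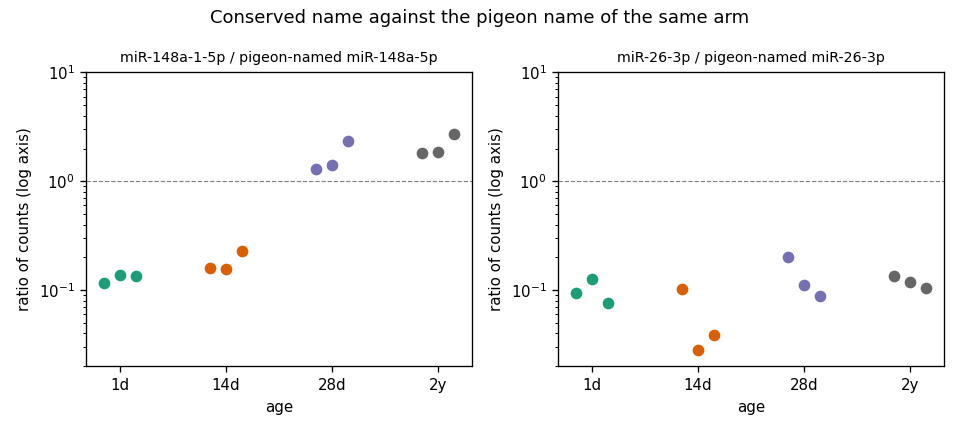
Ratio of the count of a conserved name to that of the pigeon name with the same number, letter and arm (vertical axis, log scale; dashed line at 1) in each library, by age. For miR-148a-5p the 6 libraries of 1d and 14d lie between 0.117 and 0.230 and the 6 of 28d and 2y between 1.29 and 2.71, while for miR-26-3p all 12 lie between 0.0281 and 0.200.

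miR-26-3p, the less abundant arm of a widely expressed family, was highest at 1d. Its counts were 174, 195 and 135 at 1d, 49, 34 and 60 at 14d, 111, 26 and 10 at 28d, and 32, 27 and 24 at 2y. This was 23.1 ± 3.78, 6.79 ± 3.12, 9.25 ± 3.33 and 4.86 ± 0.929 CPM (SD, n = 3), with every library of 1d above all others. From 1d to 14d it fell 3.40-fold, by 1.77 ± 0.44 on the log2 scale (SE; edgeR adjusted p = 0.0151), a call that was lost without replicate 2 of 1d or of 14d (edgeR adjusted p up to 0.0568). The fall from 1d to 14d was also not called without the filter on low counts. Between 1d and 2y it fell 4.74-fold, by 2.24 ± 0.45 (edgeR adjusted p = 0.00366), a call that held without any 1 library. The pigeon-named miR-26-3p fell 1.75-fold from 1d to 14d (edgeR adjusted p = 0.0319) and 5.80-fold between 1d and 2y (edgeR adjusted p = 7.26e-05). The conserved name had 0.0281 to 0.200 of the pigeon-named count.

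A pair of conserved names was found in every bird of 1d and in none of 14d and 28d. miR-3156-5p, the conserved name with the most counts, had 4643, 7923 and 3812 counts at 1d and 0 in all libraries of 14d and 28d. At 2y it had 3, 709 and 0 counts, so the birds of that age differed among themselves. With 3 counts per library as the floor, its level at 14d was at least 1752-fold lower than at 1d (edgeR adjusted p = 0.0310). That call was lost when any 1 library of 1d or 14d was left out (edgeR adjusted p up to 0.0860). It was also lost without the filter on low counts (edgeR adjusted p = 0.227). Between 1d and 2y miR-3156-5p was not called (edgeR adjusted p = 0.206).

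miR-2399-5p had 95, 179 and 58 counts at 1d and 0 in the 9 other libraries. It was at least 35.4-fold lower at 14d (edgeR adjusted p = 0.00870) and at least 28.7-fold lower at 2y (edgeR adjusted p = 0.00740). The name passed the filter on low counts through 1d alone, so these calls describe it and support nothing further. Both calls were lost without replicate 1 or 2 of 1d (edgeR adjusted p up to 0.0588 and 0.0528), and with the replicate number added to the model as a block. The call over the 4 ages held in all 12 fits that left out 1 library. It was the only 1 of the 92 with a count in every library of 1d and none at any other age.

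miR-6815-5p and miR-12255-3p were found at 1d and 14d and were at or near 0 at 28d. miR-6815-5p had 18, 24 and 32 counts at 1d, 31, 56 and 39 at 14d, 2, 0 and 0 at 28d, and 6, 4 and 5 at 2y. It fell from 14d to 28d with a ratio of 36.3 (95% counting interval 9.84 to 303, edgeR adjusted p = 0.00183). Every library of 28d lay below every library of 1d and 14d. The floors of replicates 2 and 3 at 28d were 0.987 and 1.90 CPM, and the libraries of 2y had 0.616 to 1.11 CPM. The order of 28d and 2y therefore cannot be told. The higher level at 2y than at 28d was not called (edgeR adjusted p = 0.282). miR-12255-3p had 22, 19 and 7 counts at 1d, 39, 22 and 41 at 14d, 0 in each library of 28d, and 4, 0 and 5 at 2y. It was at least 4.61-fold lower at 28d than at 14d (edgeR adjusted p = 0.0142). Both calls held in all 12 fits that left out 1 library, but neither was made without the filter on low counts.

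**Figure D5:**
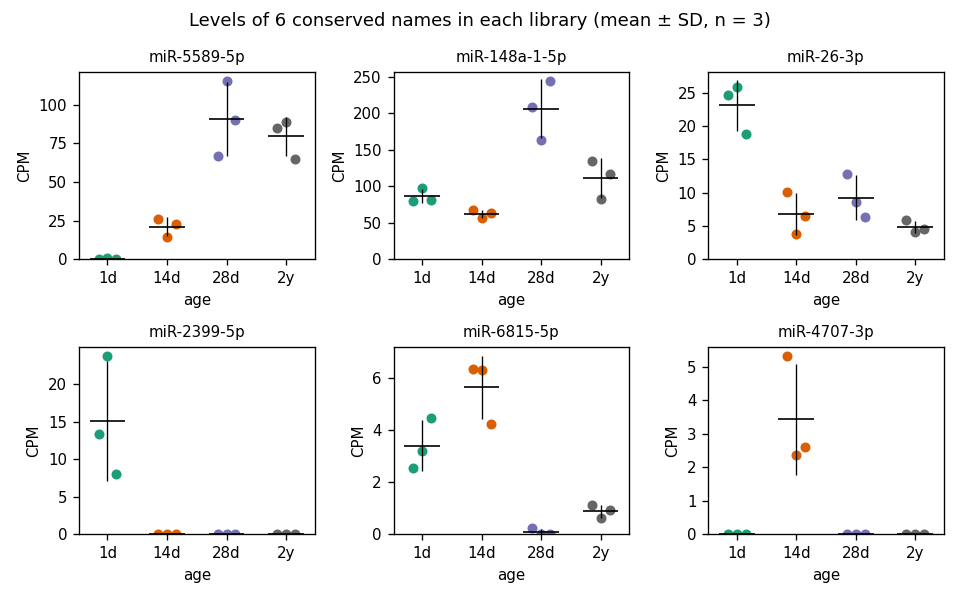
Levels (vertical axis, CPM on the TMM scale) of 6 conserved names in each library by age; points are libraries, horizontal lines means and vertical lines SD, cut at 0 (n = 3). The highest mean of miR-5589-5p and miR-148a-1-5p is at 28d, that of miR-26-3p and miR-2399-5p at 1d, and that of miR-6815-5p and miR-4707-3p at 14d.

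The age with the most names found in every library was 14d. Of the 92 names, 37 had a count in all 3 libraries of 14d, and 15 had this at 14d and at no other age, against 3 at 1d, 1 at 28d and 4 at 2y. The same count was not made for pigeon and predicted names. Libraries of 14d also had the most names with a count over all 1039 names, 502 to 504 against 303 to 445 in the others. miR-4707-3p had 26, 21 and 24 counts at 14d and 0 elsewhere. It was at least 8.31-fold higher at 14d than at 1d (edgeR adjusted p = 0.0303) and at least 3.18-fold lower at 28d than at 14d (edgeR adjusted p = 0.0396). The first call was lost in 6 and the second in all 12 of the fits that left out 1 library (edgeR adjusted p up to 0.0988 and 0.121). Neither was made without the filter on low counts.

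Similar counts were seen for miR-6748-3p, with 64, 32 and 68 at 14d, 6 in replicate 2 at 1d and 0 elsewhere, and for miR-12073-3p, with 33, 20 and 24 at 14d, 8 and 9 in replicates 2 and 3 at 1d and 0 elsewhere. From 14d to 28d they were at least 7.45-fold (edgeR adjusted p = 0.0396) and at least 3.59-fold lower (edgeR adjusted p = 0.0449). Leaving out 1 library ended these calls in 10 and 11 of 12 fits, with adjusted p up to 0.121 for both. Both were also lost without the filter on low counts.

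A further 3 names were called higher at 14d than at 1d. miR-1692-5p had 83, 32 and 17 counts at 14d, 10 in replicate 2 at 2y and 0 elsewhere, and was at least 18.1-fold higher at 14d (edgeR adjusted p = 0.0441). miR-9804-3p had 21, 24 and 14 counts at 14d and 0 at 1d, and was at least 6.87-fold higher (edgeR adjusted p = 0.0385). miR-1631-3p had 19, 11 and 45 counts at 14d and 2, 0 and 0 at 1d, a ratio of 35.6 with a 95% counting interval of 9.51 to 299 (edgeR adjusted p = 0.0367). Each call was lost in 10 or 11 of the 12 fits without 1 library, with adjusted p up to 0.152, 0.125 and 0.146. None of them was made without the filter on low counts.

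miR-142-3p and miR-145-5p, of families known from blood and smooth muscle, had most of their counts at 14d, whereas miR-143-3p and miR-1b-3p, of muscle families, had none there. These names were chosen after their values were seen. miR-142-3p had 39, 40 and 19 counts at 14d and at most 5 in any other library, and was called over the 4 ages (edgeR adjusted p = 0.0326), a call that held in 1 of the 12 fits without 1 library. The pigeon-named miR-142-3p moved the other way between 1d and 14d, from 582 ± 138 to 133 ± 26 CPM (SD, n = 3), a 4.38-fold fall (edgeR adjusted p = 0.00182). miR-145-5p had 11, 23 and 17 counts at 14d, 6 in replicate 3 at 2y and 0 elsewhere. From 1d to 14d it was not called (edgeR adjusted p = 0.0554), while limma voom called it higher (voom adjusted p = 0.00221) and DESeq2 did not. The pigeon-named miR-145-5p was 5.12-fold higher at 14d than at 1d (edgeR adjusted p = 0.00984). miR-143-3p had 55 and 46 counts in replicates 1 and 3 at 1d and 0 elsewhere, while the pigeon-named miR-143-3p was at 39764 ± 4793 CPM at 1d. miR-1b-3p had 3 counts in replicate 2 at 1d, 60 in replicate 1 at 28d, 30 and 19 in replicates 2 and 3 at 2y, and 0 elsewhere. The pigeon-named miR-1b-3p did have counts at 14d, 8 and 18 in replicates 2 and 3. It also had 30 in replicate 3 at 1d, 6 in replicate 1 at 28d, 2 in replicate 2 at 2y, and 0 elsewhere.

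miR-2404-2-5p had most of its counts in 1 library of 28d. It had 70, 127 and 896 counts at 28d, 64, 0 and 0 at 2y, 0, 19 and 0 at 14d, and 11, 0 and 0 at 1d. The call (edgeR adjusted p = 0.0319) held in 1 of the 12 fits that left out 1 library, and no comparison of a pair of ages was called, with an adjusted p of 0.0652 from 14d to 28d.

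Several of the most counted conserved names were high in some pigeons and at 0 in others of the same age. miR-345-5p had 0, 64 and 190 counts at 1d, 0, 1783 and 3295 at 14d, 0, 0 and 298 at 28d, and 1819, 1031 and 877 at 2y. miR-146a-5p, which in mammals is induced by NF-kappaB and dampens inflammatory signalling, had 0, 1231 and 746 counts at 1d, 0, 0 and 1116 at 14d, 0, 0 and 343 at 28d, and 1194, 1550 and 1634 at 2y. All 3 birds of 2y carried both names, whereas miR-345-5p was at 0 in 4 and miR-146a-5p in 5 of the other libraries.

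The zeros of both names coincided. Both were at 0 in replicate 1 of 1d, replicate 1 of 14d and replicates 1 and 2 of 28d, and miR-146a-5p also in replicate 2 of 14d. Where miR-146a-5p had a count its level was 104 to 306 CPM, at least 105-fold above the highest floor of a library at 0, which was 0.987 CPM. Over the 4 ages the edgeR adjusted p was 0.546 for miR-345-5p and 0.840 for miR-146a-5p, and neither was called between 1d and 2y, with adjusted p of 0.279 and 0.747. The pigeon-named miR-146a-5p had a count in every library, from 388 to 5069, and the ratio of the conserved to the pigeon-named count ran from 0 to 2.57. Whether reads were assigned to one name or the other by library was not tested.

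miR-10399-5p varied in the same manner, with 82, 135 and 0 counts at 1d, 184, 0 and 225 at 14d, 0, 76 and 34 at 28d, and 0, 254 and 224 at 2y. It was at 0 in 1 library of each age, and its adjusted p over the 4 ages was 0.940 in edgeR's test. miR-12094-5p had 890 and 1792 counts in replicates 1 and 2 at 1d and 0 in the other 10 libraries, among them replicate 3 of 1d.

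Large counts in a single library were common. The 10 names found in 1 library held 13023 counts, led by miR-10398-3p with 6916 counts in replicate 3 at 28d and miR-7116-3p with 4449 in replicate 3 at 1d. miR-7094-3p had 457 counts in replicate 2 at 28d, and miR-6951-5p and miR-7845-5p had 210 each in replicate 3 at 14d. Among the 92 names, 38 (41.3%) had over 50% of their counts in 1 library, against 4.42% of pigeon and 30.3% of predicted names. Near-complete cases among names with several libraries were miR-4522-5p, with 942 of 948 counts in replicate 3 at 28d, and miR-1388a-3p, with 950 of 974 in replicate 1 at 1d. The last was chosen after its values were seen and belongs to a family known from birds and fish. The pigeon-named miR-1388-3p and miR-1388-5p had counts in all 12 libraries.

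Some conserved names had exactly equal counts. In replicate 3 at 14d, miR-3151-5p, miR-1545e-5p, miR-7845-5p, miR-6951-5p and miR-5589-5p had 210 counts each, and no other name in the table had that count there. miR-7845-5p and miR-6951-5p had equal counts in all 12 libraries, being at 0 in the other 11. miR-2285an-5p equalled a predicted name in all 12, with 54 counts in replicate 1 at 28d. miR-1672-3p and miR-1672-1-3p had 142 counts each in replicate 2 at 14d and 28 each in replicate 2 at 2y, while elsewhere miR-1672-1-3p was at 0. Whether the same reads were counted under these names was not tested, and their values are uncertain.

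At the other end, 9 names were found in every library, and 6 of them carried a number with no pigeon-named entry. miR-9265-3p had 31, 30 and 20 counts at 1d, 24, 24 and 44 at 14d, 25, 20 and 7 at 28d, and 20, 25 and 21 at 2y. Its levels of 3.71 ± 0.832, 4.13 ± 1.24, 4.64 ± 1.85 and 3.83 ± 0.123 CPM (SD, n = 3) overlapped between all ages (edgeR adjusted p over the 4 ages = 0.940). Its 5p arm was found in every library too, at 3 to 16 counts, and the ratio of the 3p to the 5p arm lay between 1.54 and 5.

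miR-5705-3p and miR-6690-5p were likewise present throughout. miR-5705-3p had levels of 7.84 ± 2.62, 4.49 ± 1.42, 13.2 ± 2.86 and 8.31 ± 5.79 CPM (SD, n = 3) and was not called over the 4 ages (edgeR adjusted p = 0.197). miR-6690-5p had 2.71 ± 0.429, 1.40 ± 0.154, 3.80 ± 1.81 and 1.78 ± 0.512 CPM (edgeR adjusted p = 0.234).

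miR-1548-3p had 6, 4 and 7 counts at 1d and 33, 53 and 58 at 14d, with no overlap between both ages. The fitted difference was 7.91-fold, 2.98 ± 1.04 on the log2 scale, and stayed just short of the threshold (edgeR adjusted p = 0.0521). Upper-quartile scaling (edgeR adjusted p = 0.0443), DESeq2 (DESeq2 adjusted p = 0.0199) and limma voom (voom adjusted p = 0.0171) called it. Total-count scaling, relative log expression, the other filters and the replicate block did not. miR-3151-5p was found in all 12 libraries but ranged from 1 count in replicate 1 at 14d to 348 in replicate 2 at 2y, with an adjusted p of 0.750 over the 4 ages in edgeR's test. Those last 6 names were chosen because they had a count in every library, after their values were seen.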

How the data were processed

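Liver RNA of 3 pigeons per age was gel-selected for lengths of 10 to 45 nt and sequenced bird by bird as single-end reads of 50 bp, per the labels' protocols. The authors deposited raw counts of reads for each mature miRNA name. The submitters' processing notes name Bowtie, without a version. The sources used here give neither the genome build nor how reads fitting several names were counted, so names that share reads cannot be separated. Each of the 12 columns was matched to a library by its title.

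Counts were fitted with edgeR 4.0.16 in R 4.3.3 (filterByExpr by age, 345 names kept, TMM factors 0.512 to 1.96, robust quasi-likelihood, common biological coefficient of variation 0.807). All 12 libraries were in 1 fit, with age alone as the design. The 4 ages together and 4 pairs of ages were tested, and p-values were adjusted over all 345 names. SE is the log2 fold change divided by the square root of its F statistic. A fold against an age without counts was computed against the mean floor of 3 counts per library, and with 1 to 3 counts as a ratio of counts scaled by library size with an exact interval. The TMM factors followed age (1.61 to 1.96, 1.30 to 1.56, 0.512 to 0.953 and 0.568 to 0.730 at 1d, 14d, 28d and 2y), so on the CPM scale changes from 1d or 14d to later ages lie above changes in share.

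The names, the lists and the rule for naming were chosen with earlier results of these data known. By that rule the text names the 10 conserved names with the most counts, up to 4 called rises and 4 called falls per comparison, those called in every fit without 1 library, 5 with the largest share in 1 library, those next to the limit, names with equal counts, and pigeon-named entries of the same number. miR-1631-3p is outside the rule and is given so that each called change is named. The fall of miR-6815-5p from 14d to 28d was not among the 4 largest, but its name is in the rule by its calls in every fit without 1 library. Alternatives with DESeq2 1.42.0, limma voom 3.58.1, other scalings, filters and library subsets were run. Scripts were tested on simulated data. Some families were not analysed here.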

Additional observations from a re-analysis of the deposited data

How the results depend on the processing

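Counts of called conserved names depended on the settings. None of the 16 called changes of named members reversed its direction, but total-count scaling reversed 2 uncalled ones and called them lower, miR-148a-1-3p from 14d to 28d (0.34 to -0.82, log2) and miR-148a-1-5p between 1d and 2y (0.37 to -1.003). Over the 4 ages (13 called) no filter gave 4 and a replicate block 5. Among all tested names these gave 96 of 937 and 121 of 345, against 156 of 345 in the main fit. From 1d to 14d (8) total-count scaling gave 5 (2 higher, 3 lower, against 5 and 3), no filter 2, limma voom 15 and the block 3, and relative log expression split its 8 into 4 and 4. Among all 345 names these settings called 78, 48 (of 937), 141, 70 and 106 in that order, against 107. From 14d to 28d (6) no filter gave 1, voom 11, the block 3 and a fit of only the 6 libraries 10, and total-count scaling gave 8, all lower, against 1 higher and 5 lower. Of all names, no filter called 56 (of 937), voom 123, the block 75 and total-count scaling 116, against 97 of 345. From 28d to 2y (0) DESeq2 gave 1, miR-148a-1-5p, beside 18 of all 345 names. Between 1d and 2y (3) total-count scaling gave 8 (1 higher, 7 lower), DESeq2 6, voom 7 and the 6 libraries 5. Of all names, total-count scaling called 122, DESeq2 125 and voom 102, against 95 of 345. Among all tested names, fits without 1 library called 112 to 151, 50 to 118, 61 to 91, 0 to 3 and 71 to 107 in the same order. For conserved names these fits gave 5 to 10, 1 to 8, 3 to 5, 0 to 0 and 2 to 4. Over the 4 ages, counts moved over 1.5 times without replicate 1 of 1d, any library of 14d, or replicate 1 or 2 of 28d. From 1d to 14d they did so without any library of these ages or replicate 1 or 3 of 2y. From 14d to 28d they did so without any library but those of 1d. The filter on low counts was run anew in each of these fits, which tested 67 to 77 conserved names, against 54. The parts of the missing library and of the changed filter in these moves were not separated. An alternative chosen after seeing the data left out replicates 2 and 3 of 1d, whose descriptions name other ages, so the lone library of 1d is assumed to vary like the others. It gave fewer calls of conserved names wherever the main fit had any. Calls among all names were not counted for it or for the fits of only the 6 libraries compared. Whether all names moved alike in these fits was therefore not tested. Total-count scaling moved the median of all names by -0.31, -1.01, 0.04 and -1.31 in the 4 comparisons. Whether the replicate numbers pair the libraries is not settled. Deviations of same-numbered libraries correlated at -0.103 to 0.375 (median 0.0129), those of other-numbered libraries at -0.305 to 0.262 (median -0.0312). These ranges overlap, and 6 of 12 libraries correlated best with their own number. Of 16 called changes of named members under the other alternatives, 119 values kept the call and 24 lost it, and without 1 library 120 kept and 72 lost it.

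A limit of 20 counts gave 160 conserved names and one of 100 gave 58. The mean number found at 1d, 14d, 28d and 2y was 67.3, 88.3, 48.7 and 55.0 with a limit of 20. With a limit of 100 it was 32.0 ± 0, 33.3 ± 2.52, 26.3 ± 4.04 and 28.0 ± 1.00 (SD, n = 3), so 1d lay within the spread of 14d. With 5 or more counts per library it was 42.3, 51.3 and 35.3 at 1d, 14d and 2y. Leaving out 1 library gave 46.0 to 50.0, 54.0 to 57.0, 32.5 to 40.0 and 39.5 to 44.0. The share at 1d without miR-3156-5p was 0.133%, and leaving out 1 library gave 0.242 to 0.276, 0.0755 to 0.0967, 0.0447 to 0.191 and 0.0578 to 0.0667%. Depth limits names under the floor of up to 1.90 CPM.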
